A study of Homo sapiens with 6 samples.

Results

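The genes described are the numbered ZNF genes of chromosome 19, members of the C2H2 zinc finger family. They were taken by rule as all protein-coding rows on chromosome 19 of the deposited count table whose symbol is ZNF followed by a number and at most 1 letter. The rule gave 245 of 39323 genes. It used no measured value. RNA-seq was performed on polyadenylated RNA of MDA-MB-231, an established line from a human breast tumour that lacks hormone receptors. Cells were transfected with a small interfering RNA (siRNA) duplex against SF3B6 (siSF3B6, 3 libraries) or with a non-targeting duplex (siNC, 3 libraries). SF3B6 belongs to SF3b, a splicing complex that sits at the branch point of introns. All groups share the cell line and the lipid transfection, and 1 duplex per target was used. The design text calls the replicates biological, but no label ties them to separate cultures, so the p-values rest on a spread that may be technical.

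C2H2 zinc finger proteins bind DNA through tandem fingers, short folds held by a zinc ion that each read a few bases. Many of those on chromosome 19 arose by tandem duplication and carry a KRAB domain at the amino end. KRAB recruits TRIM28, which brings the methyltransferase SETDB1 and heterochromatin proteins, and many KRAB zinc finger proteins silence transposable elements. In many cell types their own genes carry the same repressive mark over their 3' ends, placed in part through ZNF274.

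Gene totals were 28504091 to 38546037 reads per library. With the control duplex SF3B6 stood at 86.4, 80.6 and 102 CPM (reads scaled to library size with TMM factors), and with siSF3B6 at 22.5, 25.02 and 21.3 CPM. The log2 fold change was -1.96 (SE 0.104, edgeR adjusted p = 1.43e-07). An exact two-sided permutation test gave p = 0.1, the smallest that 3 against 3 allows. The 8 markers listed for this line, such as VIM and CD44, summed to 6334 to 7021 CPM in siNC, against 1807 to 1898 CPM for 9 luminal, 11.9 to 15.5 CPM for 4 leukocyte and 8.43 to 10.0 CPM for 3 endothelial markers. In siSF3B6 the same sums were 7409 to 7448, 1833 to 2109, 13.01 to 14.4 and 6.87 to 7.91 CPM. Most of the luminal sum in siNC came from KRT8 (1004 to 1051 CPM) and KRT18 (728 to 764 CPM). CD14 (11.3 to 14.6 CPM) made most of the leukocyte sum, and PECAM1 (8.34 to 9.68 CPM) most of the endothelial sum. Of the 8 line markers ANXA1 and CAV1 rose, of the 9 luminal markers EPCAM (log2 fold change 1.09, edgeR adjusted p = 4.03e-06), CDH1 (0.56) and GATA3 (0.50) rose, and ESR1, PGR and FOXA1 had at most 0.353 CPM in every library. PTPRC rose with overlapping groups at up to 1.47 CPM, and PECAM1 fell (-0.34). CD3E and CDH5 had at most 0.199 CPM in every library. HBB (adjusted p = 0.0302) reached 6.53 CPM in siSF3B6 replicate 2 and at most 0.49 elsewhere. The part of these genes in the results was not tested. The mitochondrial share of reads was 3.38% and 3.93% in siNC replicates 1 and 2, and 9.07% to 11.8% elsewhere. Genes with 1 to 9 reads numbered 13952 and 14956 in siNC replicates 1 and 2 and 7731 to 8325 in the others. siNC replicates 1 and 2 thus stand apart, in part together with the group. Across the tested protein-coding genes, GC content and the library's deviation from the gene mean had an r of 0.37, 0.44 and 0.03 in siNC replicates 1 to 3, and of -0.11, -0.11 and -0.56 in siSF3B6 replicates 1 to 3.

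The transcripts of these genes share repeated words. The 21-base word found in the most members, shown because it limits how uniquely short reads can be placed, encodes part of the linker between fingers and stands below.

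finger linker word: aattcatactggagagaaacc

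It occurred in 71 of the 245 genes, in 247 copies, of which 16 lie in ZNF208 alone. The guide strands of both duplexes are shown because their seeds (bases 2 to 8, in capitals) could meet sites in these transcripts.

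siSF3B6 guide: aAGCUUCAacuguuccucc

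siNC guide: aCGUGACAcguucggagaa

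The site complementary to the siSF3B6 seed, TGAAGCT, was found in the 3' UTR of 10.1% of the 208 tested members with an annotated 3' UTR and in 12.7% of all tested protein-coding genes. It was found in 12.8% of members called higher and 7.7% of those called lower. The siNC site, TGTCACG, was found in 1.9% of members and 2.6% of all.

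Most of these genes were expressed at low levels. Among tested members, the median of the mean FPKM was 1.31, against 3.95 for all tested protein-coding genes, 1.69 for tested ZNF genes of other chromosomes and 6.66 for the other tested protein-coding genes of chromosome 19. Of the 243 genes with an FPKM value, 143 had a mean of at least 1 FPKM, 15 of at least 5 and 7 of at least 10. Together they took 0.24% to 0.25% of reads in siNC and 0.26% to 0.30% in siSF3B6. The filter on low counts passed 218 genes, and 216 to 218 of the 245 had at least 10 reads in each library, so few passed through 1 group alone.

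In siSF3B6 most of the tested chromosome 19 ZNF genes had a log2 fold change above 0, 175 of 218. Of these 218, 98 rose and 15 fell (edgeR quasi-likelihood, adjusted p under the 0.05 threshold), and 105 did not pass it. Over all 16869 genes tested, 20.8% rose and 20% fell. The median log2 fold change was 0.32 for these genes and 0.00 for all genes. Summed over all members, the siNC libraries held 2370, 2385 and 2424 CPM and the siSF3B6 libraries 2814, 2753 and 3091 CPM. All siSF3B6 sums lay above all siNC sums. In bulk samples, a change in the make-up of the cells and a change in RNA per cell cannot be told apart. Whether the counts include reads of close relatives is not known, since the authors' counting is not described in the sources used here. TMM assumes that most genes do not change, and with library size alone 78 rose and 21 fell with a median of 0.21, when the median of all genes was -0.10 and 14.6% of them rose and 27.0% fell.

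siSF3B6 replicate 3 stood out among the libraries. The median deviation of the 218 genes from their own mean was -0.17, -0.18 and -0.12 on the log2 scale in siNC and 0.11, 0.08 and 0.32 in siSF3B6. In 135 of the 218 genes siSF3B6 replicate 3 was the highest library, against 26 and 9 for siSF3B6 replicates 1 and 2. The median of all genes was 0.00 to 0.01 in every library. Without siSF3B6 replicate 3, 79 rose and 9 fell, with a median of 0.22, where 18.4% of all genes rose and 18.6% fell. With siNC replicate 3 as the lone control, 39 rose and 1 fell with a median of 0.27, where 6.60% of all genes rose and 7.24% fell. The spread of that library is then taken to equal the spread of the siSF3B6 libraries. Without siNC replicate 1, 80 rose and 9 fell, where 15.5% of all genes rose and 14.5% fell. Without siNC replicate 2, 80 rose and 6 fell, where 14.5% of all genes rose and 14.8% fell. The number that rose and kept the call with each library left out in turn was 70, and 5 kept it among those that fell. The same count over all genes is not given here, so these 2 numbers have no background beside them.

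**Figure D1:**
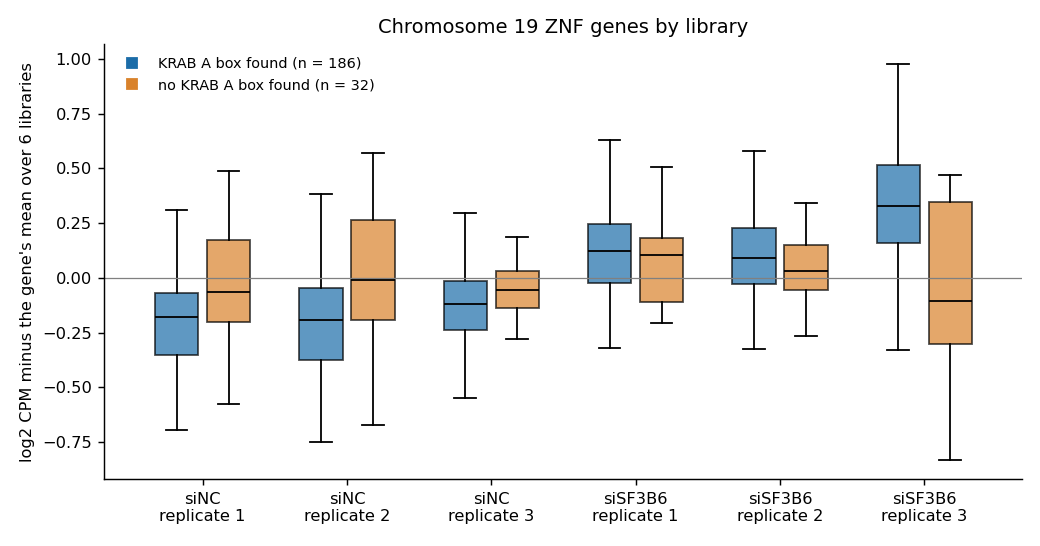
The vertical axis is log2 CPM minus the mean of the same gene over 6 libraries, for the 186 tested genes with a KRAB A box and the 32 without, in each library. Boxes span the quartiles with the median as a line, whiskers reach the last point within 1.5 box lengths, and points beyond are not drawn. The KRAB medians are below 0 in siNC and above 0 in siSF3B6, highest in siSF3B6 replicate 3 (0.33).

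The replicate spread of these genes was close to that of other genes, and the group difference was larger than that spread in most of them. The median within-group SD of log2 CPM was 0.14 in siNC and 0.16 in siSF3B6, while the median absolute difference between groups was 0.36. Over all tested genes the values were 0.13, 0.14 and 0.29. The difference exceeded the pooled within-group SD in 172 of 218 genes (78.9%), against 70.1% of all genes. It exceeded 2 such SDs in 130 (59.6%), against 46.8%. All siSF3B6 libraries lay above all siNC libraries in 121 members, where 26.3% of all genes did so. All lay below in 21, where 25.9% of all genes did so, and the groups overlapped in 76. The SD was larger in siSF3B6 than in siNC in 133 of the 218.

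**Figure D2:**
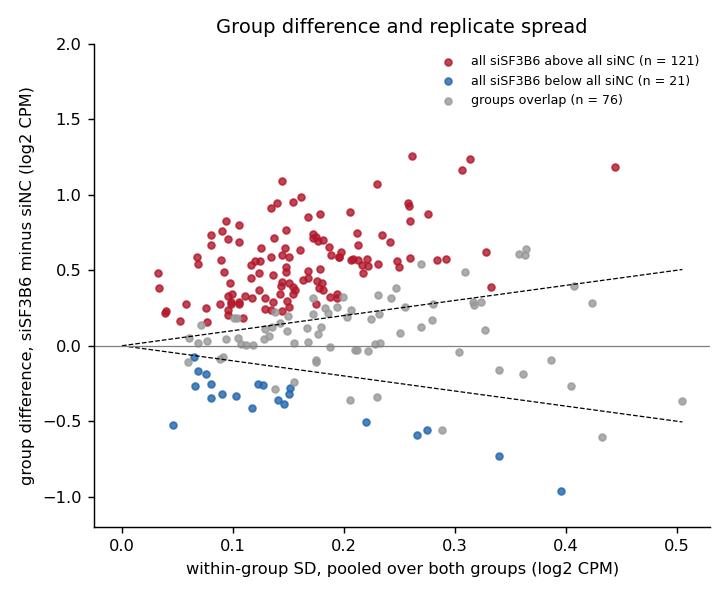
The horizontal axis is the pooled within-group SD of log2 CPM and the vertical axis the siSF3B6 minus siNC difference of mean log2 CPM, 1 point for each of 218 tested genes. Dashed lines mark a difference of 1 SD. The 121 genes with groups that do not overlap in the raised direction lie above the upper line, and the 21 in the lowered direction lie below the lower one.

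The most raised gene was ZNF616 (ENSG00000204611.7, chromosome 19 at 52113091 to 52139922, minus strand, GRCh38), a KRAB gene with 21 fingers. It stood at 3.85, 5.10 and 4.82 CPM with the control duplex and at 9.70, 9.67 and 13.9 with siSF3B6, a log2 fold change of 1.27 (SE 0.163, edgeR adjusted p = 6.17e-05). The lowest siSF3B6 library was well above the highest siNC library. The nearby ZNF614 and ZNF615 rose with ZNF616. Between ZNF614 and ZNF616 lie ZNF432 and ZNF841, which rose less, with log2 fold changes of 0.57 and 0.72. ZNF614 (ENSG00000142556.19, 52012765 to 52030240, minus strand) stood at 7.82, 7.59 and 8.96 CPM with the control duplex and at 16.8, 15.8 and 19.6 with siSF3B6 (log2 fold change 1.10, SE 0.115, adjusted p = 1.44e-05). ZNF615 stood at 4.42, 4.54 and 4.64 CPM with the control duplex and at 8.75, 7.82 and 10.7 with siSF3B6 (1.00, adjusted p = 0.000101). The siNC libraries of ZNF615 were nearly equal, with an SD of 0.03 on the log2 scale.

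ZNF160, a KRAB gene with 20 fingers of the same stretch of the chromosome, stood at 14.6, 17.8 and 15.9 CPM with the control duplex and at 28.3, 29.3 and 33.3 with siSF3B6 (0.91, adjusted p = 2.28e-05). ZNF227 stood at 9.46, 10.2 and 11.2 CPM with the control duplex and at 19.95, 17.8 and 22.1 with siSF3B6 (0.95, adjusted p = 2.8e-05), with 19.1% of its exonic bases overlapped by antisense genes. ZNF567 stood at 5.96, 5.30 and 7.32 CPM with the control duplex and at 12.3, 11.4 and 15.4 with siSF3B6 (1.07, adjusted p = 9.44e-05). In each of these the groups did not overlap, and siSF3B6 replicate 3 was the highest library. The log2 fold changes of ZNF583, ZNF17 and ZNF805 were 0.96, 0.94 and 0.90. Those of ZNF460 (1.21), ZNF610 (1.18) and ZNF132 (1.12) rest on few reads, with 0.68 to 1.62 CPM in every siNC library and 1.84 to 2.65 CPM in every siSF3B6 library. ZNF132 also had the largest SD within siNC, 0.63.

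**Figure D3:**
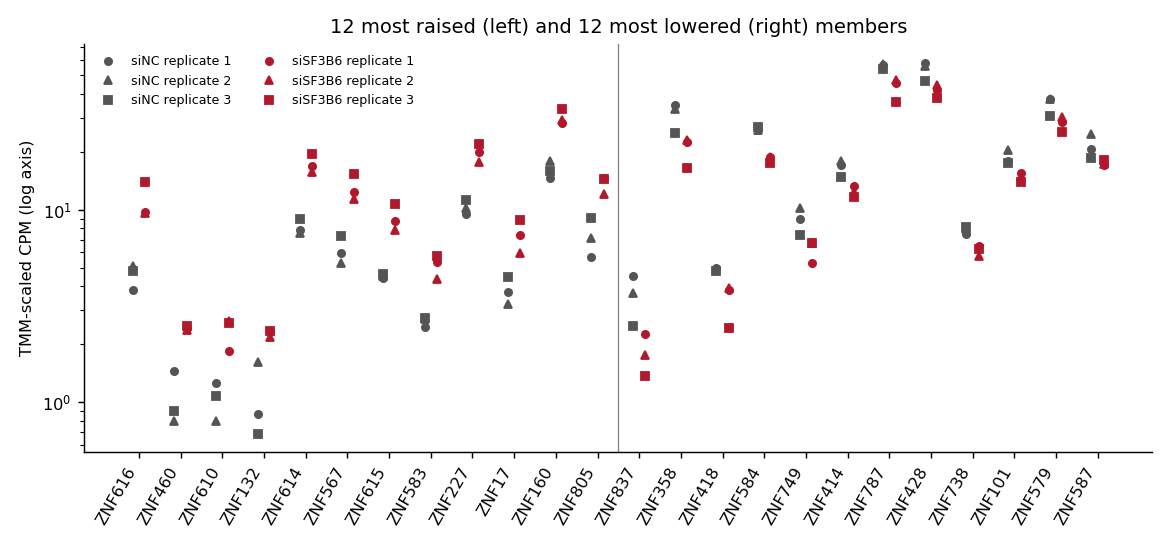
The vertical log axis is TMM-scaled CPM for the 12 most raised and 12 most lowered members with groups that do not overlap, 1 mark per library, siNC in grey and siSF3B6 in red. The raised genes lie between 0.68 and 33.3 CPM, and the lowered genes reach 58.3 CPM.

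The genes that fell were fewer. Of the 15, 9 had no KRAB A box, and their median GC content was 58.8%, against 41.5% for the 98 that rose. ZNF837, without a KRAB A box, stood at 4.52, 3.68 and 2.47 CPM with the control duplex and at 2.25, 1.76 and 1.37 with siSF3B6, a log2 fold change of -0.99 (SE 0.236, edgeR adjusted p = 0.00461). The gap between the lowest siNC and the highest siSF3B6 library was small beside the within-group SDs of 0.44 and 0.35. ZNF358 stood at 35.1, 33.2 and 25.1 CPM with the control duplex and at 22.5, 23.0 and 16.4 with siSF3B6 (-0.59, adjusted p = 0.00443), and a fit offset for transcript GC content and length gave -0.19 (adjusted p = 0.0469). In both genes the library numbered 3 was the lowest of its group. ZNF584, a KRAB gene, stood at 26.1, 26.1 and 27.0 CPM with the control duplex and at 18.7, 18.8 and 17.5 with siSF3B6 (-0.53, adjusted p = 0.000323). Its libraries were close together, with SDs of 0.03 and 0.06.

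The log2 fold changes of ZNF418, ZNF749 and ZNF414 were -0.53, -0.50 and -0.42, and with the offset ZNF414 had -0.15 (adjusted p = 0.115). ZNF787 stood at 56.5, 57.6 and 53.9 CPM with the control duplex and at 45.4, 47.2 and 36.5 with siSF3B6 (-0.38, adjusted p = 0.00772) and went to 0.04 (adjusted p = 0.642) with the same offset. ZNF579 had -0.32 and likewise lost its direction with the offset (0.0009, adjusted p = 0.992). ZNF738 (-0.35), ZNF101 (-0.34) and ZNF587 (-0.29, adjusted p = 0.0471) complete the 12. ZNF587 shares 20.2% of its 50-base words with genes elsewhere in the genome and 33.3% of its exonic bases with antisense genes.

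The genes of highest level per length were mainly short ones without a KRAB A box. ZNF428, a protein with 1 finger, had the highest mean FPKM, 25.9. It stood at 58.3, 55.8 and 46.9 CPM with the control duplex and at 42.1, 44.6 and 38.3 with siSF3B6, a log2 fold change of -0.36 (edgeR adjusted p = 0.0093). The offset gave -0.12 (adjusted p = 0.144), and 27.6% of its exonic bases are overlapped by antisense genes. ZNF114, the next at 25.8 FPKM, stood at 95.9, 88.7 and 89.0 CPM with the control duplex and at 91.5, 88.2 and 103 with siSF3B6. Its groups overlapped (log2 fold change 0.05, adjusted p = 0.682).

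ZNF146, at 17.7 FPKM, encodes a protein made almost only of fingers. It stood at 74.1, 68.1 and 78.4 CPM with the control duplex and at 93.6, 90.8 and 119 with siSF3B6, a rise of 0.46 on the log2 scale (edgeR adjusted p = 0.00331). All siSF3B6 libraries lay above siNC, replicate 3 farthest. ZNF580, at 11.9 FPKM, changed by -0.26 on the log2 scale (adjusted p = 0.044), a value that the offset moved to -0.01 (adjusted p = 0.864). ZNF581, which overlaps ZNF580 on the same strand, had -0.09 (adjusted p = 0.53), and ZNF524 had -0.10 (adjusted p = 0.507). With the offset ZNF581 had 0.10 (adjusted p = 0.327), and ZNF524 turned to 0.20 and passed the threshold (adjusted p = 0.0345).

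Several named members varied more within a group than between groups. Among members of at least 1 mean CPM, the largest SDs in siNC after that of ZNF132 were 0.50 for ZNF345, 0.50 for ZNF665, 0.50 for ZNF135 and 0.44 for ZNF497. ZNF135 stood at 4.58, 4.57 and 2.50 CPM with the control duplex and at 3.06, 3.22 and 3.56 with siSF3B6. Its siNC replicate 3 was the lowest of all libraries and the others of siNC the highest, so the groups overlapped. ZNF345, ZNF665 and ZNF497 had 0.83 to 4.01 CPM in every library, and none of the 4 passed the test. Among the same members the largest SDs in siSF3B6 were 0.49 for ZNF442, 0.47 for ZNF404 and 0.47 for ZNF568. ZNF568 stood at 5.39, 5.30 and 5.09 CPM with the control duplex and at 5.75, 5.66 and 10.0 with siSF3B6, so 1 library held most of its difference (log2 fold change 0.44, adjusted p = 0.0849). ZNF404 passed the threshold (0.64, edgeR adjusted p = 0.0492) with overlapping groups, and did not with DESeq2 (adjusted p = 0.113).

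Of 10 members named for a known function, 8 rose, ZNF146 among them, where 45% of the tested members and 20.8% of all genes rose. ZNF274, which helps place the repressive histone mark on ZNF gene clusters, stood at 39.1, 39.2 and 43.9 CPM with the control duplex and at 53.5, 51.2 and 58.7 with siSF3B6, a log2 fold change of 0.42 (SE 0.0875, edgeR adjusted p = 0.00193). The groups did not overlap. With siNC replicate 3 as the lone control it was 0.30 (adjusted p = 0.164). ZNF91, which represses SVA retrotransposons, stood at 10.6, 9.94 and 13.2 CPM with the control duplex and at 15.4, 14.2 and 19.3 with siSF3B6 (0.53, adjusted p = 0.00666). ZNF93, which represses older L1 elements, stood at 8.37, 9.94 and 11.9 CPM with the control duplex and at 13.9, 12.2 and 17.2 with siSF3B6 (0.52, adjusted p = 0.0117). The groups of ZNF93 touched closely, since siNC replicate 3 and siSF3B6 replicate 2 were nearly equal.

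ZNF350, a repressor that binds BRCA1, stood at 9.04, 6.63 and 8.40 CPM with the control duplex and at 11.3, 12.3 and 14.7 with siSF3B6 (0.67, edgeR adjusted p = 0.00161). ZNF675, an inhibitor of TRAF6 signalling, had a log2 fold change of 0.70 (adjusted p = 0.00248), and ZNF382, a KRAB repressor, one of 0.72 (adjusted p = 0.00936) at 1.39 to 3.14 CPM. ZNF224, a repressor known for binding the aldolase A promoter, changed by 0.35 (adjusted p = 0.0197), a value that the offset moved to 0.17 (adjusted p = 0.0595). Antisense genes overlap 40.5% of the exonic bases of ZNF224. ZNF331, an imprinted gene, stood at 19.4, 19.4 and 19.9 CPM with the control duplex and at 21.4, 20.4 and 25.1 with siSF3B6. Its groups did not overlap, but it did not pass the test (0.19, adjusted p = 0.133), nor did ZNF585A (0.38, adjusted p = 0.0754).

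Some calls of named members turned on a single library. ZNF428 had an edgeR adjusted p of 0.0574 without siNC replicate 1. For ZNF101 it was 0.0841, and for ZNF507 0.0545, without siNC replicate 2. ZNF93 had 0.0596 without siNC replicate 1 and 0.0681 without siSF3B6 replicate 3. ZNF749 had 0.0745 without siNC replicate 2 and 0.0614 without siSF3B6 replicate 1. Without siNC replicate 1, siNC replicate 2 and siSF3B6 replicate 3 in turn, ZNF224 had 0.0611, 0.0914 and 0.066, ZNF418 had 0.0673, 0.0611 and 0.0594, and ZNF579 had 0.0973, 0.0969 and 0.0627. ZNF738 had 0.0765, 0.0531 and 0.113 without siNC replicate 2, siNC replicate 3 and siSF3B6 replicate 2. ZNF580, ZNF587 and ZNF404 lost the call in 4, 5 and 5 of the 6 such fits, with adjusted p-values up to 0.18, 0.269 and 0.19. In the other direction, ZNF135 (0.021) and ZNF585A (0.0188) passed without siNC replicate 3. ZNF442 (0.0482) and ZNF568 (0.026) passed without siSF3B6 replicate 2, and ZNF568 (0.043) and ZNF585A (0.0486) without siSF3B6 replicate 1.

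Most genes that rose had a KRAB A box, as most of the members do, and transcript GC content differed between genes with and without it. The box was found in 208 of the 245 genes and in 89 of the 98 that rose. Among 186 tested with a box, 89 rose (47.8%) and 6 fell (3.23%), with a median log2 fold change of 0.35. Among 32 tested without a box, 9 rose and 9 fell (28.1% each), with a median of 0.06. These shares stand beside 20.8% of all genes that rose and 20% that fell. Without siNC replicate 2, 1 gene with a box fell, and 5 without a box fell when siNC replicate 1, siNC replicate 2 or siSF3B6 replicate 3 was left out. The library medians of the genes with a box were -0.18, -0.19 and -0.12 in siNC and 0.12, 0.09 and 0.33 in siSF3B6. Those of the genes without a box were -0.06, -0.01 and -0.06 in siNC and 0.11, 0.03 and -0.11 in siSF3B6. The groups of medians did not overlap with a box and did without one. The difference between both kinds was not tested. Median GC content was 41.8% with a box and 58.8% without. Under the offset for GC content and length 72 rose and 12 fell with a box, and 12 rose and 4 fell without one. In that fit 23.7% of all genes rose and 22.7% fell.

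Finger number was described within the same genes. Of the tested KRAB genes, 11 of 26 with 0 to 8 fingers rose, 27 of 60 with 9 to 12, 30 of 60 with 13 to 16, and 21 of 40 with 17 or more. The share that rose was 42.3%, 45%, 50% and 52.5% in that order, and 2, 1, 3 and 0 fell. Of all genes 20.8% rose and 20% fell. No test was made of this order. ZNF91 has the most fingers of the genes that rose, 31, and ZNF428 has 1.

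GC content was compared in 4 equal classes of the tested protein-coding genes, with bounds of 42.0%, 48.4% and 56.6%. In the lowest class, 55 of 100 members rose and 1 fell, where 39.6% of all protein-coding genes rose and 10% fell. In the next, 31 of 80 rose and 4 fell, where 28.9% rose and 15.7% fell. In the third, 10 of 16 rose and 1 fell, where 16.5% rose and 27.0% fell. In the highest, 2 of 22 rose and 9 fell, where 7.85% rose and 37.5% fell. The median log2 fold change of all protein-coding genes went from 0.21 in the lowest class to -0.22 in the highest, and that of the members was 0.40, 0.27, 0.45 and -0.21. The members of the highest class were near the background of that class. Without a KRAB A box, 6 of 8 rose and 0 fell in the lowest class, and 2 of 20 rose and 9 fell in the highest. With a box, 49 of 92 rose and 1 fell in the lowest class, and 0 of 2 rose and 0 fell in the highest. Across the 218 members the r of GC content and log2 fold change was -0.39, a description over genes that share 6 libraries. With the offset 84 members rose and 16 fell, with a median of 0.20, where 23.7% of all genes rose and 22.7% fell. Of the 98 that rose 79 kept their call, as did 10 of the 15 that fell. Among the genes named here the values of ZNF837 (-0.56), ZNF146 (0.29), ZNF91 (0.31) and ZNF546 (0.38) shrank by over 1.5 times and kept their call, and that of ZNF738 grew to -0.54. ZNF404 lost its call (0.45, edgeR adjusted p = 0.129), and ZNF442 gained one (-0.74, adjusted p = 0.0478). The part of GC content in the results was not tested beyond this.

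**Figure D4:**
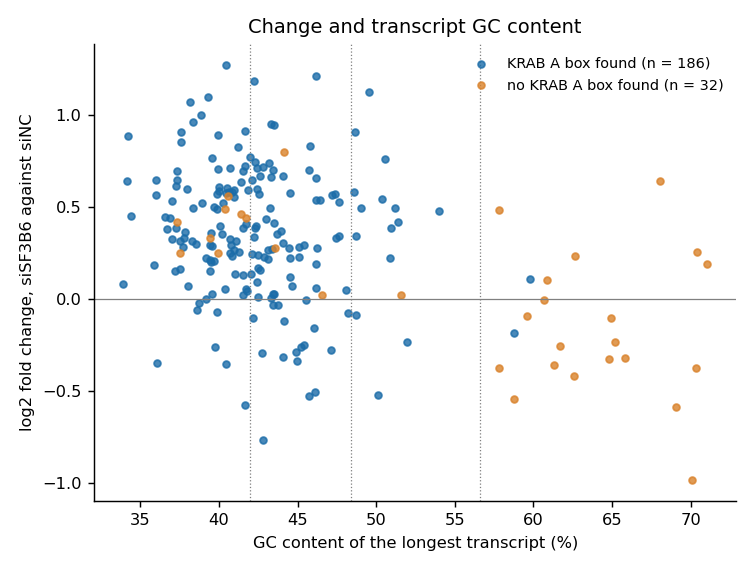
The horizontal axis is the GC content of the longest transcript in percent and the vertical axis the log2 fold change, 1 point for each of 218 tested genes, coloured by KRAB A box. Dotted lines mark the class bounds of the tested protein-coding genes. Most KRAB genes lie below 48.4% and above 0, and genes without the box above 56.6% lie mostly below 0.

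In the rest of the chromosome more genes fell than rose. Of 792 other tested protein-coding genes of chromosome 19, 70 rose (8.84%) and 274 fell (34.6%), with a median of -0.18. Of all tested protein-coding genes 23.2% rose and 22.5% fell. Most of the 792, 579 genes, were in the highest GC class. There 6.22% of them rose and 37.8% fell, near the 7.85% and 37.5% of all protein-coding genes of that class. In the lowest GC class only 10 of the 792 were tested, of which 3 rose and 1 fell. The ZNF genes of other chromosomes gave counts near those of the members. Of 229 tested, 95 rose and 16 fell, with a median of 0.24. Of those with a KRAB A box, 48 of 93 rose and 1 fell. No test between these sets was made, and no value here is called particular to chromosome 19.

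The members formed 16 clusters at gaps over 1 Mb, some of which hold only 1 gene. The counts of genes that rose are given by cluster, with no test between clusters, where 20.8% of all genes rose and 20% fell. The cluster at 51571298 to 53580269 held 39 members, of which 36 were tested, 22 rose and 0 fell, with a median log2 fold change of 0.53. ZNF616, ZNF610, ZNF614, ZNF615, ZNF160 and ZNF350 all lie in it. In the cluster at 43525497 to 45076588, 11 of 21 rose and 1, ZNF428, fell, with a median of 0.56. In that at 36182060 to 37817300, 11 of 24 rose and 0 fell, led by ZNF567. In that at 19668796 to 24129961, which holds ZNF91 and ZNF93, 14 of 27 rose and 2 fell. The most raised there was ZNF626, with 6.96, 6.53 and 6.22 CPM in siNC and 12.2, 9.18 and 15.6 in siSF3B6 (0.90, adjusted p = 0.000723).

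Other clusters held fewer changes or a mixture. At 11483427 to 12640098, 5 of 24 rose and 0 fell, led by ZNF136 (0.89, edgeR adjusted p = 0.000382), so the share that rose, 20.8%, was that of all genes. At 7069444 to 9793180, 8 of 13 rose, led by ZNF561 (0.70, adjusted p = 8.27e-05), and 2, ZNF358 and ZNF414, fell. The last cluster, at 55476332 to 58481230 near the end of the long arm, was the largest with 59 members. There 21 of 55 rose, led by ZNF460, and 10 fell, led by ZNF837, with a median of 0.22. ZNF792 (0.76), ZNF546 (0.59) and ZNF526 (0.48) led smaller clusters. ZNF333 (0.67) and ZNF507 (0.33) each stood alone, as a cluster of 1 gene. With the offset ZNF507 had 0.13 (adjusted p = 0.0733). The median GC content was 37.6% in the cluster of ZNF91 and 46.4% in the last cluster.

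**Figure D5:**
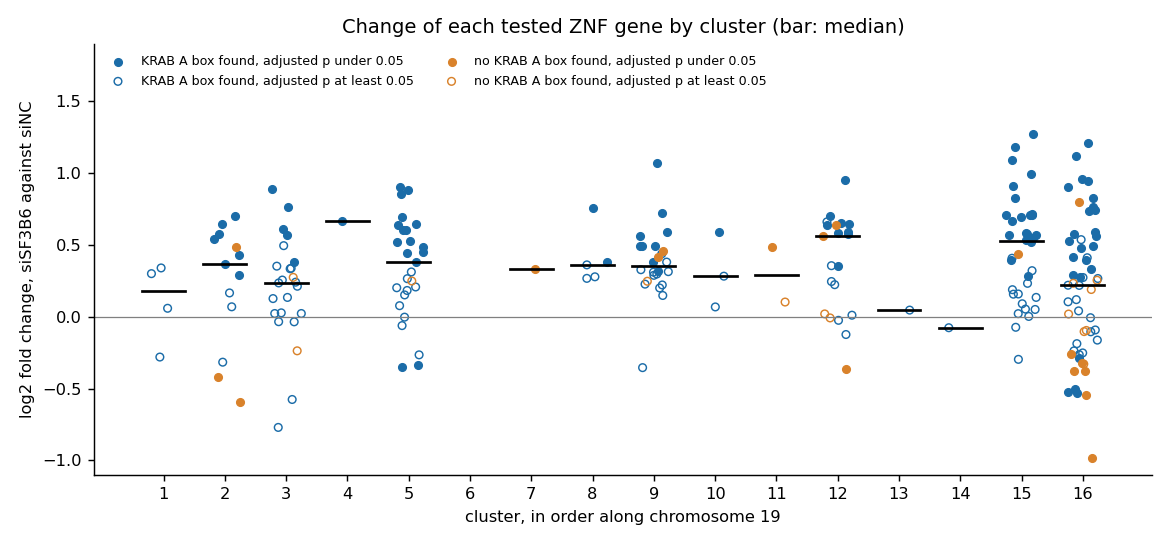
The horizontal axis is the cluster in order along chromosome 19 and the vertical axis the log2 fold change of each of 218 tested genes, with the cluster median as a bar. Filled points passed the 0.05 threshold, and colour marks the KRAB A box. Cluster 15, the one of ZNF616, holds 22 filled points above 0 and 0 below, and cluster 16 holds 10 below.

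Shared sequence and overlapping genes were compared with the calls. Words shared with genes that overlap in position were kept apart from words shared with genes elsewhere. Of 45 tested members that share at least 5% of their 50-base words with genes elsewhere, 20 rose and 1 fell. Of 53 that share none with genes elsewhere, 23 rose and 7 fell, where 20.8% of all genes rose and 20% fell. The highest shares elsewhere were 58.0% for ZNF98, mostly with ZNF492, and 38.2% for ZNF417, mostly with ZNF587. With overlapping gene models the shares reached 99.48% for ZNF320 and 99.15% for ZNF468. ZNF564, which rose and shares none elsewhere, shares 84.7% with overlapping models. Of 22 tested members with at least 10% of exonic bases overlapped on the other strand, 9 rose (40.9%) and 4 fell (18.2%). The share that fell there is near the 20% of all genes. By level, 21 of the 73 lowest members rose, 35 of the middle 72 and 42 of the 73 highest. The share that rose was lowest where reads were fewest, and 2, 3 and 10 fell in the same order.

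Promoters are shown for 3 members as examples of both directions: ZNF616 and ZNF615, which rose, and ZNF787, which fell. With the GC and length offset ZNF787 had 0.04 (edgeR adjusted p = 0.642), so its fall was not kept there. Sequences are RefSeq's on GRCh38.p14, from 250 bases before to 50 after RefSeq's gene start, 5′ to 3′ on the gene's strand. That start lay within 100 bases of the GENCODE gene start in 152 of 214 members, these 3 included, and farther off in the others. Capitals mark the GC box GGGCGG and the ETS word CCGGAAG on either strand, and where both strands match at 1 place the matches overlap. They lie at chr19:52139889-52140188, chr19:52008162-52008461 and chr19:56121246-56121545, all on the minus strand.

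ZNF616: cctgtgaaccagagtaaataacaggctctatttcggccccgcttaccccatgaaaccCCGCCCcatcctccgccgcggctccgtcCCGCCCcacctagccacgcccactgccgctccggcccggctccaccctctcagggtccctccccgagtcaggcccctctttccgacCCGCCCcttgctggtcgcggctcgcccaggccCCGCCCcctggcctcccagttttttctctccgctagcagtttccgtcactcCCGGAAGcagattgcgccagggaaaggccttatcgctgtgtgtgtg

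ZNF615: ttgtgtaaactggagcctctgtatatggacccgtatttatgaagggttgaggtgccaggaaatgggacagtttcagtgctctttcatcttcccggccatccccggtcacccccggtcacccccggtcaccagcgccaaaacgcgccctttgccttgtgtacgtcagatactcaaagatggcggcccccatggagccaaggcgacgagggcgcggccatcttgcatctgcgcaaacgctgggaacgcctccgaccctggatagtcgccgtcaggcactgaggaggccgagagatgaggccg

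ZNF787: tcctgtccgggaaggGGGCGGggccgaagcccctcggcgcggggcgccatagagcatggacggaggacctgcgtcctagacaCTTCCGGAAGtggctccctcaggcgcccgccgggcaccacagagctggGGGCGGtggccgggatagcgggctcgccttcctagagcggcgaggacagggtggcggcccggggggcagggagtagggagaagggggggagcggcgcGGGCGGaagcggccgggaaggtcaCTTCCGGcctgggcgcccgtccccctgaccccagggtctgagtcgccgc

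The ZNF616 promoter holds both words, that of ZNF615 holds neither, and that of ZNF787 holds several of each. Of 214 members with a promoter entry, 44.9% held the ETS word, against 10.7% of all 27305 promoters and 18.9% of 10606 tested protein-coding genes. Among the 152 members with both starts close together it was in 52.0%. It was in 47.3% of members that rose and 35.7% of the 14 with an entry that fell. The GC box was in 67.8% of members, 44.6% of all promoters and 69.9% of tested protein-coding genes. CCAAT was in 53.3% of members and 36.6% of tested genes, and TATAAA in 1.9% and 5.7%. These matches describe letters in this window and were not tested against the calls.

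Genes that work with KRAB zinc finger proteins were taken from a list of cofactors and heterochromatin genes. Of the 30 listed, all tested, 6 rose and 13 fell, with a median log2 fold change of -0.16, where 20.8% of all genes rose and 20% fell with a median of 0.00. The number that rose is near that background. The largest changes were in DNMT1, the maintenance DNA methyltransferase, with 205, 204 and 188 CPM in siNC and 111, 113 and 105 in siSF3B6 (-0.86, edgeR adjusted p = 4.53e-06). UHRF1, which guides DNMT1 to replicated DNA, had -0.85 (adjusted p = 4.78e-06). SUV39H1, a histone H3 methyltransferase, had -0.76 (adjusted p = 4.26e-05), and HELLS, a chromatin remodeller, -0.63 (adjusted p = 8.04e-05). ATF7IP, the partner that stabilizes SETDB1, rose from 40.7, 40.3 and 51.4 CPM to 70.0, 69.4 and 73.4 CPM (0.68, adjusted p = 0.000146). TRIM28, named here after its values were seen, stood at 492, 489 and 393 CPM with the control duplex and at 359, 356 and 315 with siSF3B6 (-0.42, adjusted p = 0.00456). In all 6 of these genes the groups did not overlap. For TRIM28 siNC replicate 3 lay nearest to siSF3B6, and no value with the offset is given. SETDB1 did not pass the threshold, with overlapping groups (-0.10, edgeR adjusted p = 0.37). HDAC1, HDAC2, TASOR, PPHLN1 and EHMT2 did not pass it either. CBX1, ATRX and RESF1, 3 of the 6 that rose, each had 0.52.

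Other C2H2 genes of chromosome 19 that the symbol rule misses were counted too. Of 24 listed, 13 were tested, of which 3 rose and 3 fell, with a median of 0.12, counts near the 20.8% and 20% of all genes. ZBTB7A, a transcriptional repressor, stood at 73.1, 74.8 and 72.2 CPM with the control duplex and at 97.9, 99.4 and 92.9 with siSF3B6 (0.40, edgeR adjusted p = 0.000891). ZFP30 had 0.39 (adjusted p = 0.0393) with overlapping groups, and its call was lost without siNC replicate 2 (0.0703), siNC replicate 3 (0.122), siSF3B6 replicate 1 (0.0528) or siSF3B6 replicate 3 (0.184). ZSCAN5A (-0.60), KLF16 (-0.43) and KLF2 (-0.37) fell. With the offset KLF16 had -0.07 (adjusted p = 0.313), KLF2 had -0.06 (adjusted p = 0.501) and ZFP30 had 0.18 (adjusted p = 0.268), so all 3 lost their call.

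The 27 members that the filter left untested had few reads. They summed to 55, 79 and 40 reads in siNC and 20, 39 and 36 in siSF3B6. At least 1 read was found for 22, 22 and 12 of them in siNC and 7, 15 and 8 in siSF3B6. The higher numbers in siNC replicates 1 and 2 go with the larger number of genes with 1 to 9 reads in those libraries. Among them were ZNF208, with 8 reads over all libraries, and ZNF98 and ZNF492, which share much of their sequence.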

How the data were processed

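Polyadenylated RNA of 6 MDA-MB-231 libraries was sequenced, 3 per group, from strand-specific libraries per the labels' protocols. The authors deposited whole-number read counts per gene, not normalized, and FPKM values. The submitters' processing notes name HISAT2, DESeq2 and hg38 without versions. How reads were counted, with or without strand, and on which annotation is not given in the sources used here. The table had 0 columns of other samples.

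Counts were fitted with edgeR 4.0.16 in R 4.3.3 (filterByExpr, TMM factors, glmQLFit and glmQLFTest, siSF3B6 against siNC, no replicate block). The Benjamini-Hochberg adjustment ran over the 16869 genes tested, and the threshold was 0.05. Levels are TMM-scaled CPM. Spread is the SD of log2 CPM (prior count 1) within a group. A standard error is the fitted log2 fold change over the root of F. The total per library was 28504091 to 38546037 reads. On simulated counts of this comparison (16657 genes), recovery was 12% at a 1.25-fold change, 78% at 1.5-fold, 94% at 2-fold and 98% at 4-fold, and 6 calls were false. There 50 members were changed at each size, all other genes were left unchanged, and no GC trend was set between libraries. The count of false calls holds for that setting only, since far more genes were called in the data.

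All 245 genes had a model in GENCODE release 29 (GRCh38). No source used here says that the authors counted on it. It gave positions, transcript length, GC content and overlaps. Zinc fingers and the KRAB A box were found by patterns in the longest translated coding sequence. The box pattern was adjusted on annotated sequences and gene names in several versions, before any fold change of these genes had been computed here. It matched 208 genes and misses boxes that the longest model lacks. A gap over 1 Mb between gene starts ended a cluster. Promoters are those of RefSeq on GRCh38.p14, found for 214 genes, the first entry of each.

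The genes, the lists and the tests were chosen with earlier results of these data known. Named genes were the 12 largest changes in each direction among called genes of at least 1 CPM with groups that do not overlap, and the 8 of highest FPKM. The 5 of largest SD in siNC and the 3 in siSF3B6, of at least 1 mean CPM, 10 with a known function, the extremes of each cluster and up to 5 called genes of each of the 2 further lists were also named. The fit was repeated with DESeq2 1.42.0, limma-voom (limma 3.58.1), limma on log2(FPKM + 1) or log2(FPKM + 0.1) of genes with at least 0.5 mean FPKM or of all, a replicate block, robust dispersion, RLE factors or plain library size, and with no filter or one of at least 1 CPM. Libraries were left out singly or as the pair numbered 3, siNC replicate 3 was used as the lone control, mitochondrial genes were left out, and a lowess offset (span 0.3) was set for GC content and length. That offset with the replicate block, and the divisions by GC content, level, shared sequence and antisense overlap, were chosen after seeing the data.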

Additional observations from a re-analysis of the deposited data

How the results depend on the processing

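Fold changes from few reads, overlapping models and 3 libraries per group limit these results. Whether the counts separate strands or close copies is not given in the sources used here. The members that rose numbered 65 with filtered log2(FPKM + 1) or log2(FPKM + 0.1), 47 unfiltered, and 39 where siNC replicate 3 was the lone control. Those that fell numbered 5 unfiltered and 1 with the lone control. With filtered log2(FPKM + 1) the median was 0.144, where 18.3% of all genes rose and 25.7% fell. With filtered log2(FPKM + 0.1) 18.2% of all genes rose and 25.5% fell, and unfiltered 4.29% rose and 6.08% fell. With 1 library left out, 79 to 100 rose, 6 to 15 fell and the median was 0.218 to 0.381. In those fits 14.5% to 22.5% of all genes rose and 14.5% to 21.4% fell. The members that fell numbered 9 without siNC replicate 1, 6 without siNC replicate 2 and 9 without siSF3B6 replicate 3.

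Among KRAB genes, 57 rose with either filtered FPKM fit, 43 unfiltered and 36 with the lone control. KRAB genes that fell numbered 3 with DESeq2, 11 with library size only, 2 with unfiltered FPKM, 1 with the lone control, 11 without both libraries numbered 3, and 12 with the GC and length offset, alone or with the replicate block. With 1 library left out they numbered 1 to 6. Of all genes, 18.1% fell with DESeq2, 27% with library size only and 27% without both libraries numbered 3. With the offset 22.7% of all genes fell, and 22.4% with the offset and the block. Without a KRAB A box, 4 rose and 3 fell with unfiltered FPKM, 3 rose and 0 fell with the lone control, and 4 fell with the offset, alone or with the block. With 1 library left out, 5 to 9 fell. ZNF787 had 0.0399 and ZNF579 0.0009 with the offset, and 0.0437 and 0.0003 with the offset and the replicate block. Among genes that had not passed the threshold, the sign also turned for ZNF524 (0.2007 and 0.2001) and ZNF581 (0.1003 and 0.1008) under those fits. With the lone control it turned for ZNF581 (0.0975), ZNF524 (0.0890), ZNF345 (-0.1820), ZNF665 (0.2166) and ZNF135 (0.3792). ZNF114 turned to -0.0568 with library size only, -0.0071 with filtered log2(FPKM + 1), -0.0074 with log2(FPKM + 0.1), filtered or not, -0.0275 without siSF3B6 replicate 3 (range with 1 library left out -0.0275 to 0.0956) and -0.0375 without both libraries numbered 3. ZNF665 had 0.0079 without siNC replicate 2 (range -0.5041 to 0.0079). The cause of these differences was not tested.

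With the replicate block alone 110 members rose and 18 fell, where 24% of all genes rose and 23.7% fell. All calls made without the block were kept. Same-numbered libraries correlated at 0.033, 0.102 and 0.123 in their deviations from the group means, so the numbers were not taken to pair the samples, although every library correlated best with its own number. Over the named genes, 1214 of the refitted values kept their sign and their side of the threshold, 132 lost the call, 14 gained one and 20, in 8 genes, changed sign. Of 53 named genes with a call, 25 lost it with the lone control, 23 with unfiltered FPKM, 11 with the offset and 5 with DESeq2 (ZNF418, ZNF738, ZNF587, ZNF404 and ZSCAN5A).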
